A study of Homo sapiens with 12 samples.

Results

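Cultures of the human embryonic stem cell line H9 that had gone through neural differentiation in the presence of FT671 (FT671_NEUR) were compared with H9 cells that had not been differentiated (UNDIF), across the 13310 genes of the deposited table. The comparison takes 6 of the 12 libraries, 3 FT671_NEUR and 3 UNDIF, chosen by their labels. FT671 is a small-molecule inhibitor of USP7, an enzyme that removes ubiquitin from other proteins. As the vehicle control, 3 libraries of cells differentiated with DMSO, the solvent (DMSO_NEUR), were set beside them, and 3 libraries of differentiation with neither FT671 nor DMSO (NEUR) entered only the estimate of the spread. Every sample is labelled wild type (WT), although the sheet that holds the values is headed as USP7 heterozygote data. The vehicle samples are called undifferentiated in 1 label field and neural in their titles, which were followed. UNDIF cells grew on Matrigel in mTeSR medium. For differentiation, confluent cells were moved to a serum replacement medium with A83-10 and Dorsomorphine, inhibitors of the activin and BMP branches of SMAD signalling, and later to medium for neural stem cells that held EGF and bFGF. The dose of FT671 and the time cells spent in it were not given in the labels, so the medium, the time in culture and FT671 all differ between the groups and cannot be told apart in this comparison. The vehicle comparison differs in FT671 alone as far as the labels say. The labels do not say whether the 3 libraries of a group came from separate cultures, and p-values therefore measure the spread between these libraries.

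Embryonic stem cells are held in the pluripotent state by a small network of transcription factors that includes POU5F1 and SOX2, and they divide fast with a short G1 phase. When activin and BMP signals are blocked they pass by default into neuroectoderm, which keeps SOX2 and gains PAX6. The alternative ectodermal route, driven by factors of the TFAP2, GATA and GRHL families, gives surface ectoderm and its simple or stratified epithelia, and the same factors serve trophoblast and amnion. USP7 stabilises the p53 ligase MDM2, and it binds the Polycomb complex PRC1.1, whose subunits BCOR, PCGF1 and KDM2B direct histone marks to CpG islands.

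The unit throughout is the normalized count, which is the deposited value minus 1: reads in a gene divided by 1 size factor for its library. Means are given ± SD (n = 3). A gene was called at a limma adjusted p under 0.05, with Benjamini-Hochberg adjustment over all genes. Fold changes are limma estimates on log2(normalized count + 1) with their standard error, a scale on which changes of low genes are understated. Summed over the table, an UNDIF library had 15906471 to 16072737 reads and an FT671_NEUR library 17107952 to 17271155.

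Most of the transcriptome differed between the groups. Of the 13310 genes tested, 11711 were called (88.0%), 5863 of them higher in FT671-treated cultures (44.0%) and 5848 lower (43.9%). A change of at least 2-fold was called in 3170 genes upward (23.8%) and 3057 downward (23.0%), and a change of at least 16-fold in 367 and 461. The libraries of the 2 groups did not overlap in 5993 genes higher with FT671 and 6014 lower. A lack of overlap between them was therefore common and does not set a gene apart. Because so many genes were called, the count of a gene list is read below against these shares, and its size is read from the median fold change, which over all genes was -0.002 on the log2 scale. Scaling by library totals in place of the authors' size factors moved that median to -0.27. Reads were more concentrated with FT671: the 10 genes with most reads took 8.55% to 8.70% of a library against 4.34% to 5.23% in UNDIF. FN1, the gene of the matrix protein fibronectin, took 3.71% ± 0.0898 of all reads with FT671, 0.0179% ± 0.000227 in UNDIF and 0.134% ± 0.00492 with vehicle.

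**Figure D1:**
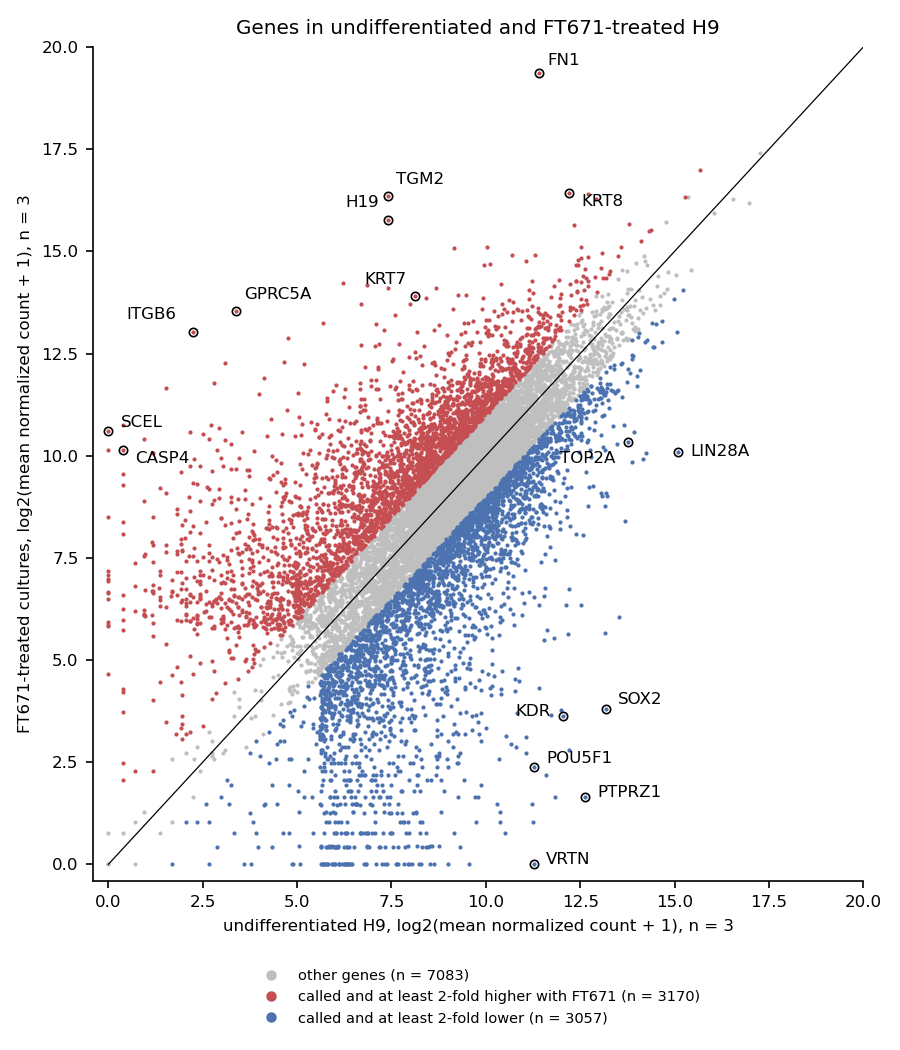
Each point is 1 of the 13310 genes, placed by log2(mean normalized count + 1) in the 3 UNDIF libraries (x axis) and the 3 FT671_NEUR libraries (y axis), with the line of equal values in black. Red points are the 3170 genes called and at least 2-fold higher with FT671 and blue points the 3057 called and at least 2-fold lower, and the circled genes lie far from the line on either side.

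Some genes had no read in 1 of the groups. Over the 3 UNDIF libraries 17 genes had 0 reads, and over the 3 FT671_NEUR libraries 59 had 0. At most 3 reads in UNDIF went with a mean of at least 100 counts with FT671 in 21 genes, and the reverse held for 68 genes. Genes enter the table through the group where they have reads, so such genes had to differ. Where a group had 0 reads, the fold is given as a bound against a floor of 3 reads over that group.

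The targeted gene and its complex were measured first. USP7 had 3714, 3932 and 3770.5 counts in the UNDIF libraries, 2654, 2611 and 2626 with FT671 and 4054, 3820.1 and 3946 with vehicle. The FT671 libraries were the lowest with no overlap (log2 fold change -0.53 ± 0.06, adjusted p = 1.87e-07 against UNDIF, and -0.58 ± 0.06 against vehicle, adjusted p = 9.51e-08). FT671 acts on the enzyme, so the mRNA level does not check the treatment. Among PRC1.1 subunits BCOR fell from 882 ± 46.2 to 488 ± 62.5 counts and the demethylase subunit KDM2B from 1940 ± 116 to 1311 ± 53.3, while PCGF1 rose from 130.0 ± 1.58 to 217 ± 30.4 (-0.86 ± 0.10, -0.56 ± 0.07 and 0.72 ± 0.13 on the log2 scale). In the list of PRC1.1 and USP7 partners 4 of 12 genes were higher and 8 lower. YAF2, a subunit of such complexes, rose from 97.3 ± 8.69 to 227 ± 5.87 counts, and the maintenance methyltransferase gene DNMT1 fell from 5970.5 ± 234 to 2656 ± 37.9. With vehicle BCOR had 988 ± 13.1 counts, KDM2B 1518 ± 38.9, PCGF1 125 ± 3.67, YAF2 231 ± 13.8 and DNMT1 5116 ± 257. The rise of YAF2 was thus shared with the vehicle (limma adjusted p = 0.871 for FT671 against vehicle). KDM2B fell in both, and FT671 was below vehicle by -0.21 ± 0.07 on the log2 scale.

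The markers POU5F1 and SOX2 were nearly lost with FT671, other pluripotent and neural markers fell less, and an epithelial keratin and fibronectin rose. POU5F1, a core transcription factor of pluripotency, had 2624, 2281 and 2472 counts in UNDIF and 2.12, 6.31 and 4.25 with FT671 (log2 fold change -8.96 ± 0.48, adjusted p = 1.21e-11). SOX2, shared by pluripotent and neural cells, had 10746, 8279 and 8766 in UNDIF and 14.8, 15.8 and 8.49 with FT671 (log2 fold change -9.40 ± 0.16, adjusted p = 7.05e-18). For both genes the groups were far apart. In the vehicle libraries POU5F1 was also near 0, at 1.95, 2.91 and 0, but SOX2 stood at 1729, 1464 and 1562. KRT7, a keratin of simple epithelia, went the other way, from 272, 276 and 285 counts to 15539, 16675 and 13852 (log2 fold change 5.78 ± 0.11, adjusted p = 2.00e-17), with 441, 504 and 582 in the vehicle. FN1 had 2779.5, 2655 and 2676 in UNDIF, 660960, 667510 and 694580 with FT671 (log2 fold change 7.96 ± 0.13, adjusted p = 5.35e-18) and 22107, 21714 and 23513 with vehicle. The label gives all 12 samples the cell type embryonic stem cell, which the near loss of POU5F1 goes against in the FT671 and vehicle groups. With FT671, PAX6 and CDH2 go against the neural label as well. PAX6 had 176 ± 20.8 counts in UNDIF, 13.05 ± 4.42 with FT671 and 3985 ± 249.9 with vehicle. The neural cadherin CDH2 had 3135 ± 105, 52.5 ± 14.7 and 11311 ± 143. NES, a fixed neural progenitor marker, fell less, with 10600 ± 907, 5852 ± 165 and 27738 ± 474. DPPA4, a fixed pluripotent marker, had 5473 ± 327, 1381 ± 85.6 and 1431 ± 45.2, and FT671 and vehicle did not differ (limma adjusted p = 0.474). In bulk RNA, fewer cells of a type and less RNA of that type per cell cannot be told apart.

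**Figure D2:**
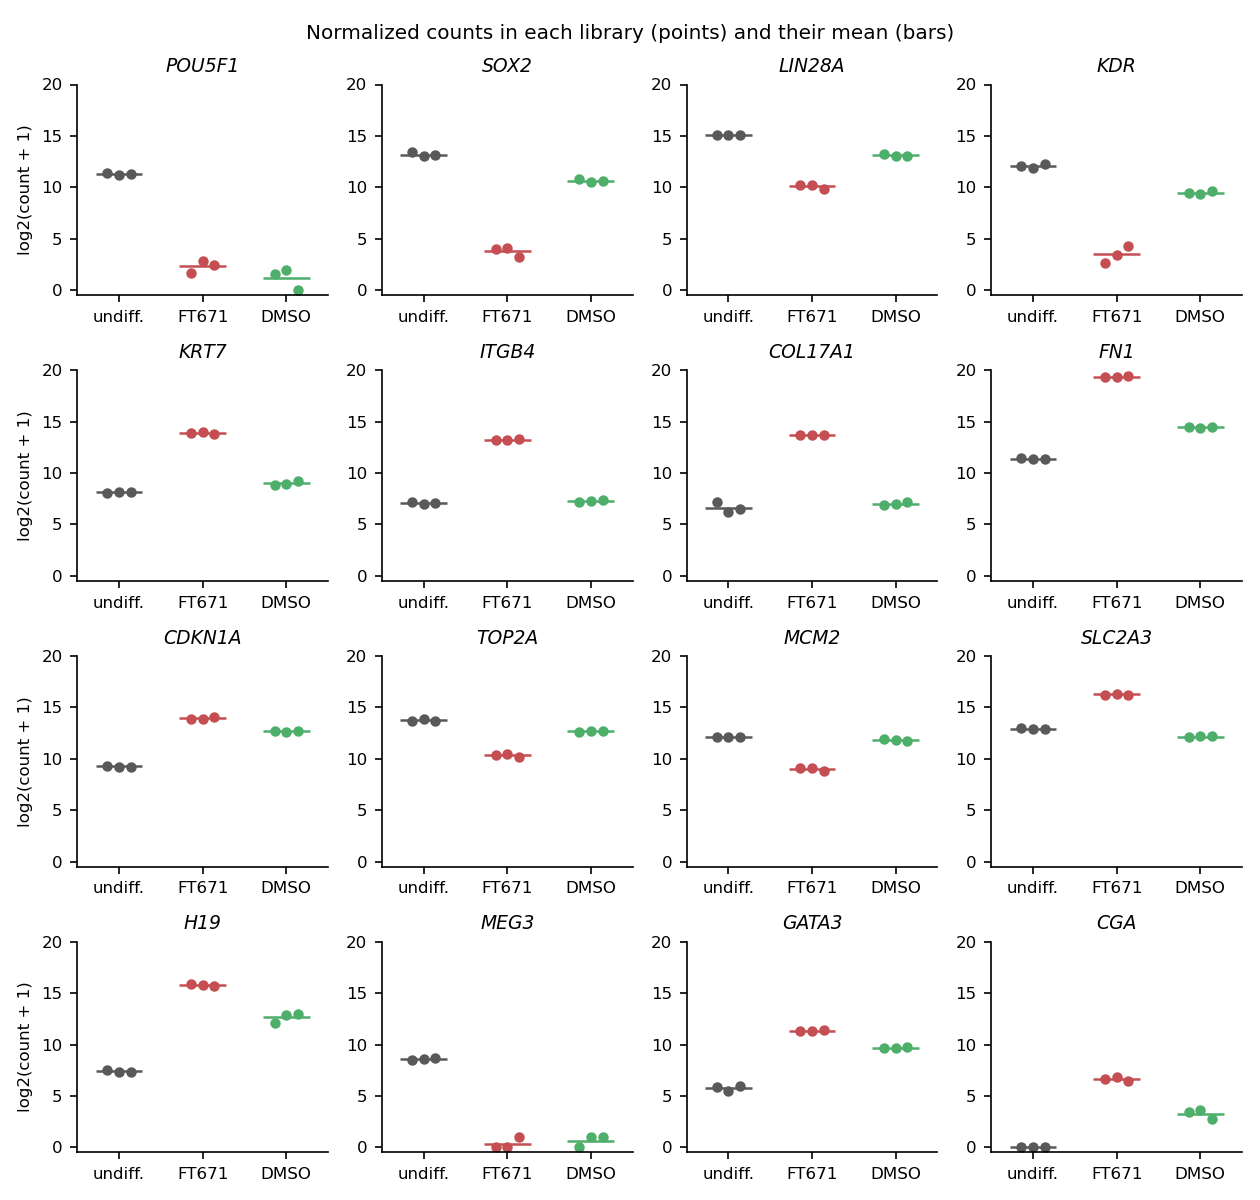
Normalized counts of 16 genes in each of 3 libraries (points) as log2(count + 1), with the mean of the points as a bar, for undifferentiated cells (grey), FT671 (red) and the DMSO vehicle (green). POU5F1 was near 0 in both differentiated groups, SOX2 and KDR were low with FT671 and well above it with vehicle, and KRT7, ITGB4 and COL17A1 were high with FT671 and near UNDIF with vehicle.

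Genes of pluripotency fell as a group. Of 28 genes measured, 26 were lower, 25 of them at least 2-fold, and 2 were higher, with a median log2 fold change of -3.27. In the vehicle 25 were lower and 1 higher (median -2.71). Between FT671 and vehicle 9 were higher and 12 lower with FT671. VRTN, a gene of the epiblast, had 2631, 2345 and 2400.3 counts in UNDIF and 0 in all 3 FT671 libraries, at least 2324-fold lower. The pluripotency-linked RNA ESRG went from 3643 ± 451 to 2.12 ± 1.84 counts and the NODAL co-receptor gene TDGF1 from 681 ± 52.7 to 3.17 ± 1.06. In the vehicle VRTN, ESRG and TDGF1 were near 0 as well, at 4.22 ± 0.58, 0.647 ± 0.56 and 0.648 ± 1.12 counts. LIN28A, an RNA-binding protein that blocks maturation of let-7 microRNAs, fell from 35112 ± 590.3 to 1097 ± 152, and stood at 8861 ± 626 with vehicle. The loss was uneven in genes named here after their values were seen: L1TD1, an RNA-binding protein of stem cells, kept 2498 ± 405 of 3429 ± 309 counts, and the zinc finger gene ZFP42 kept 848 ± 37.4 of 1926 ± 47.8, where the vehicle had 74.2 ± 16.4 and 113 ± 11.5. The 2 genes that rose were CD9, a surface tetraspanin that epithelia share (923 ± 185 to 7036 ± 253), and the ETS factor ETV4. The summed level of the list was 149730 to 150890 counts in UNDIF, 26715 to 27811 with FT671 and 30865 to 33719 with vehicle.

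FT671-treated cultures fell below even the stem cells for most neural progenitor genes. Of 19 measured, 15 were lower than in UNDIF and 4 higher, with a median of -3.95. The vehicle moved the other way at the median (1.39), with 11 genes higher and 7 lower, where 39.1% of all genes were called higher and 41.0% lower in that comparison. Between FT671 and vehicle 16 of the 19 were lower with FT671 and 1 higher, against 39.7% and 40.2% of all genes. FABP7, a fatty acid binding protein of radial glia, had 499, 513 and 505 counts in UNDIF and 0 in every FT671 library, at least 478-fold lower. SOX3, a partner of SOX2, went from 371, 281 and 300.3 to 1.06, 2.10 and 0, a fall by a ratio of 301 (counting interval 102 to 1457), and had 717, 910.5 and 810.1 with vehicle. ZIC2 fell from 2714 ± 154 to 19.02 ± 6.33 counts and the forebrain factor LHX2 from 119 ± 23.5 to 0.353 ± 0.612. Unlike SOX3, the genes FABP7, ZIC2 and LHX2 were lower than UNDIF in the vehicle too, at 18.5 ± 5.08, 98.8 ± 19.6 and 54.5 ± 4.60 counts. The 4 that rose were MEIS1, MEIS2, PLAGL1 and NR2F2, transcription factors that many non-neural tissues use; NR2F2, an orphan nuclear receptor, had 402 ± 73.1 counts in UNDIF, 4742 ± 130.2 with FT671 and 4351 ± 116 with vehicle.

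Genes of early neurons were also lower, with 10 of 15 called lower and 2 higher (median -1.03). The vehicle had 10 higher and 2 lower (median 0.44). DCX, a microtubule gene that young neurons need to migrate, fell from 345 ± 21.7 to 3.16 ± 2.78 counts, and to 28.2 ± 3.04 with vehicle. The adhesion gene NCAM1 fell from 477 ± 48.2 to 21.9 ± 2.26 while the vehicle held 2129.7 ± 178 (-6.54 ± 0.11 for FT671 against vehicle, adjusted p = 3.00e-17). INA and MAPT, both cytoskeletal genes, were the 2 that rose. The neural crest list split, with 5 of 13 higher and 7 lower, and the vehicle had 3 higher and 8 lower. PAX7 went from 153, 144 and 186 to 1.06, 0 and 0 counts, DLX5 from 109 ± 16.9 to 1.41 ± 0.603 and the neurotrophin receptor NGFR from 722 ± 69.0 to 26.8 ± 4.94. In the vehicle PAX7, DLX5 and NGFR had 1.30 ± 1.49, 0.646 ± 1.12 and 371 ± 90.9 counts. PAX7 and DLX5 were not called between FT671 and vehicle (limma adjusted p = 0.319 and 0.167). The members that rose, SNAI2, TFAP2A, ERBB3, MSX2 and ETS1, are genes that epithelia or mesenchyme use as well.

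Transcription factors of surface ectoderm and epithelium rose. Of 21 measured, 18 were higher and 2 lower than in UNDIF, with 16 at least 2-fold higher and a median of 1.88. In the vehicle 14 were lower and 6 higher (median -1.91), and 20 of 21 were higher with FT671 than with vehicle. VGLL1, a TEAD cofactor, had 2.87, 7.53 and 5.58 counts in UNDIF, 1345, 1449 and 1307 with FT671 and 12.6, 19.4 and 6.84 with vehicle (log2 fold change 7.83 ± 0.35, adjusted p = 9.43e-13). GATA3 had 58.4, 43.3 and 61.4 counts in UNDIF, 2492, 2484 and 2796 with FT671 and 829.5, 809 and 841 with vehicle (log2 fold change 5.56 ± 0.11, adjusted p = 3.59e-17). For VGLL1 the vehicle overlapped UNDIF, whereas for GATA3 it lay between the other groups. TFAP2A, which opens the surface ectoderm programme, had 68.9, 74.3 and 66.0 in UNDIF and 1216, 1304 and 1327 with FT671, and only 19.4, 18.4 and 15.6 with vehicle (6.10 ± 0.17 for FT671 against vehicle, adjusted p = 6.92e-15). KLF5, a factor of proliferating epithelia, rose from 49.1 ± 13.2 to 1472 ± 64.8. The splicing regulators ESRP1 and ESRP2, which keep epithelial isoforms, and GRHL2, which maintains epithelial junction genes, were among those higher with FT671 than in UNDIF and lower with vehicle, at 534 ± 45.0, 1968 ± 211 and 54.2 ± 12.8 counts for GRHL2. These 3 genes were named after their values were seen.

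All 9 keratin genes measured were called higher, 8 of them at least 2-fold (median 4.59, the highest of the 40 lists). KRT8 and KRT18, the filament partners of simple epithelia, went from 4712, 4477 and 4929 to 86989, 91765 and 83482 and from 1150.1, 1029 and 1118 to 26571, 27887 and 24849 counts. KRT17, a keratin of basal and stressed epithelium, had 3 reads in all over UNDIF, at 0, 0.941 and 1.86 counts, and 1361, 1281 and 1452 with FT671, a ratio of 1462 (counting interval 495 to 7023). Keratin genes have close pseudogene copies, and reads shared with them could not be checked. KRT80 rose from 18.9 ± 8.30 to 1921 ± 247 and KRT23 from 1.57 ± 0.528 to 588 ± 34.8. Keratins were higher in the vehicle too, 9 of 9, with a median of 1.69, and 8 of 9 were higher with FT671 than with vehicle. The keratin sum was 8158 to 8758 counts in UNDIF, 151290 to 171780 with FT671 and 37088 to 38778 with vehicle.

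Junction genes rose with the keratins. In the tight and adherens junction list 22 of 25 genes were higher and 1 lower (median 1.12), while the vehicle had 5 higher and 18 lower (median -0.95). The claudin CLDN4 had 1484, 1482 and 1534 counts in UNDIF, 11664, 11700 and 12020 with FT671 and 2712, 2814 and 2857 with vehicle (log2 fold change 2.97 ± 0.08, adjusted p = 7.63e-16), with no overlap between groups. Another claudin gene, CLDN7, rose from 466 ± 30.5 to 3203 ± 118. The polarity gene CRB3 and the apical recycling gene RAB25 rose by 2.50 ± 0.12 and 2.17 ± 0.13 on the log2 scale. CDH1, which encodes E-cadherin and is a fixed epithelial marker, had 3994 ± 95.7 counts in UNDIF, 14810 ± 704 with FT671 and 918 ± 90.1 with vehicle. Stem cells are themselves an epithelial sheet that carries E-cadherin, and this gene rose above that level.

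All 13 genes measured of desmosomes and the cornified envelope were at least 2-fold higher (median 2.26), against 23.8% of all genes. SCEL, a component of the cornified envelope, had 0 reads in UNDIF and 1563, 1583 and 1516 counts with FT671, at least 1649-fold higher, with 9.72, 14.5 and 17.6 in the vehicle. The desmosomal plaque gene PKP3 rose from 75.7 ± 4.71 to 3179.5 ± 207, SFN, an epithelial adaptor induced by p53, from 139 ± 33.9 to 4605 ± 166, and the desmosomal cadherin DSC3 from 111 ± 12.9 to 1615 ± 36.8. EVPL, envoplakin, went from 2.51 ± 1.42 to 62.4 ± 4.46 counts. Relative to vehicle 13 of the 13 were higher.

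**Figure D3:**
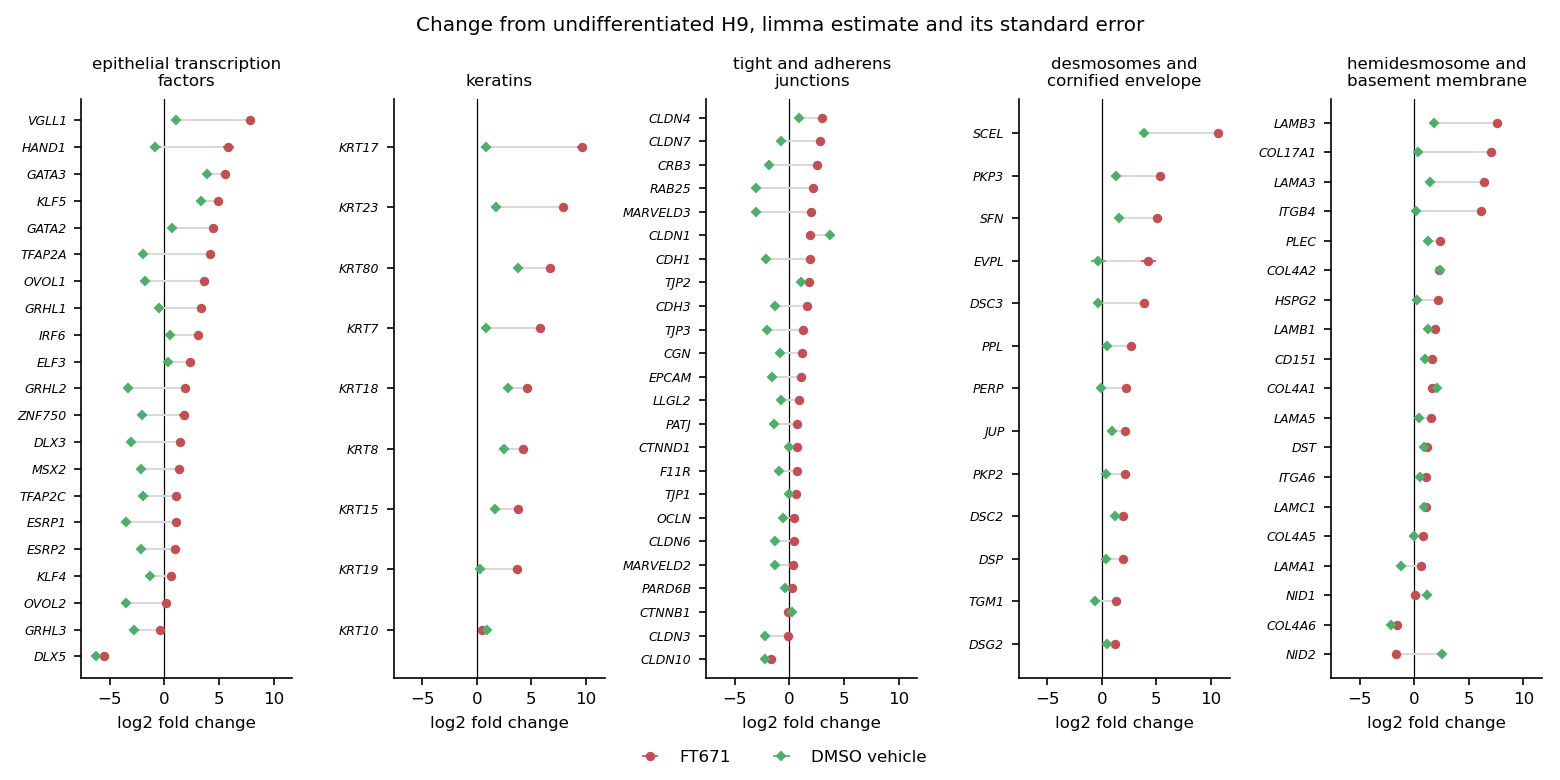
Log2 fold change from UNDIF, with its standard error, of measured members of 5 lists of epithelial genes, for FT671 (red circles) and the DMSO vehicle (green diamonds), which share the UNDIF libraries. Most red points lie right of 0, and in the transcription factor and junction panels most green points lie left of it.

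Genes of the hemidesmosome, the plaque that ties basal epithelial cells to their basement membrane, made some of the largest rises. COL17A1, its transmembrane collagen, had 142, 72.4 and 92.0 counts in UNDIF, 13472, 13164 and 13521 with FT671 and 116, 124 and 145 with vehicle (log2 fold change 7.08 ± 0.16, adjusted p = 2.66e-16). ITGB4, its integrin beta chain, had 142, 127 and 139 counts in UNDIF, 9392, 9207 and 9835 with FT671 and 142, 150.1 and 169 with vehicle (log2 fold change 6.12 ± 0.09, adjusted p = 1.25e-18). In both genes UNDIF and vehicle overlapped or nearly met and the FT671 libraries stood alone. Chains of the laminin that this integrin holds rose as well, LAMA3 from 25.8 ± 7.13 to 2214 ± 79.3 and LAMB3 from 50.5 ± 6.16 to 9641 ± 553 counts (6.40 ± 0.16 and 7.55 ± 0.11 on the log2 scale). Both were higher than in the vehicle too, by 4.92 ± 0.16 and 5.73 ± 0.11. In the list 17 of 20 genes were higher and 2 lower, with a median of 1.62 against 0.97 in the vehicle. The lower ones were COL4A6 and NID2. Shared basement membrane genes such as COL4A2, a chain of type IV collagen, were higher in both, at 5346 ± 249 counts in UNDIF, 26086 ± 535 with FT671 and 27061 ± 4026 with vehicle.

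The promoters of LAMA3 and SCEL are shown because both genes went from low counts or no reads to a mean above 1500 counts and because both hold the AP-1 motif, the site of FOS and JUN family factors, which many epithelial genes use. The 250 bases before the start are from RefSeq (GRCh38.p14), 5′ to 3′ on the gene's strand, with the motif TGACTCA, or TGAGTCA where it is on the other strand, in capitals. LAMA3 lies at chr18:23872770-23873019 (+) and SCEL at chr13:77535456-77535705 (+).
LAMA3: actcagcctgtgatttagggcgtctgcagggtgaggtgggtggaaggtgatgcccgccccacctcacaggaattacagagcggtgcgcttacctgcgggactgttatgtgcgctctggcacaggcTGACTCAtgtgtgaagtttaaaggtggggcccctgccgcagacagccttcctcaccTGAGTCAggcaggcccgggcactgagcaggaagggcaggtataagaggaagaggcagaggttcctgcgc
SCEL: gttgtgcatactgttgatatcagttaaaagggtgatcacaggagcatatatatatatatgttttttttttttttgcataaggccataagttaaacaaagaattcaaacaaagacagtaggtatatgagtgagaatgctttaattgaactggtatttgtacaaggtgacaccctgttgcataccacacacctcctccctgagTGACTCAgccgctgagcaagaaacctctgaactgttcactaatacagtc
In LAMA3 the motif begins 125 and 69 bases before the start, and in SCEL 49 bases before. Over windows from 250 bases before to 50 after the start, 3.28% of the 10191 genes of the table with a RefSeq promoter held the motif, 5.59% of the 2345 called and at least 2-fold higher, and 2.53% of the 2217 called and at least 2-fold lower. In the hemidesmosome list 2 of 15 promoters held it and in the desmosome list 2 of 8. These are counts of letters and do not show binding.

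Fibronectin, the integrins that bind matrix and their adaptors rose. Of 19 genes of fibronectin and its receptors, 17 were higher and 0 lower (median 2.01). The vehicle's median was 2.02, with 19 of 19 higher, and against vehicle 11 were higher and 7 lower. ITGB6, an integrin chain largely confined to epithelia, had 4.78, 0.941 and 5.58 counts in UNDIF, 8234, 8868 and 8036 with FT671 and 866, 959 and 995 with vehicle (log2 fold change 10.96 ± 0.29, adjusted p = 1.46e-15). TGM2, a transglutaminase that crosslinks matrix, had 178, 147 and 179 counts in UNDIF, 83229, 85584 and 81090 with FT671 and 37384, 40948 and 41451 with vehicle (log2 fold change 8.95 ± 0.08, adjusted p = 6.03e-21). The collagen receptor ITGA2 rose from 343 ± 28.7 to 14732 ± 1333 and ITGB3 from 2.83 ± 0.973 to 201 ± 27.6 counts. For these 4 genes the vehicle lay between the other groups, and FT671 exceeded it by 3.16 ± 0.29, 1.06 ± 0.08, 2.38 ± 0.13 and 3.72 ± 0.26 on the log2 scale.

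Genes of mesenchyme and fibrillar matrix moved apart. Of 22, 13 were higher and 8 lower. Matrix genes were among the higher: COL1A2, a collagen I chain, rose from 6622 ± 223 to 86503 ± 1397 counts and LOX, which crosslinks collagen, from 14.8 ± 4.33 to 2928 ± 106. The transcription factors ZEB1 and ZEB2, which repress E-cadherin, fell. ZEB2 had 1064, 1106 and 1049 counts in UNDIF, 24.4, 25.3 and 23.4 with FT671 and 1434, 1377 and 1395 with vehicle, and ZEB1 had 171, 154 and 134 counts in UNDIF, 11.7, 7.37 and 12.7 with FT671 and 819.8, 763 and 811 with vehicle. The FT671 libraries were the lowest for both, with no overlap (-5.41 ± 0.11 and -3.76 ± 0.16 against UNDIF, -5.79 ± 0.11 and -6.14 ± 0.16 against vehicle). VIM, the intermediate filament of mesenchyme, had 3019 ± 173 counts in UNDIF, 3844 ± 72.4 with FT671 and 40749 ± 2653 with vehicle, and COL3A1 had 2.83 ± 2.49, 21.1 ± 6.83 and 200.0 ± 21.9. SNAI2 rose from 12.9 ± 3.08 to 449 ± 48.1, whereas SNAI1 had 111 ± 20.4 and 88.5 ± 17.7 counts and was not called.

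Matrix proteases and their inhibitors were 18 of 21 higher and 3 lower (median 2.43), close to the vehicle's median (2.25). TIMP3, an inhibitor of metalloproteases, rose from 169 ± 31.4 to 17469 ± 495 counts, MMP14, a membrane-bound protease, from 1660.5 ± 136 to 30583 ± 1208, and MMP9 from 20.8 ± 6.04 to 950.1 ± 54.4. MMP16 fell from 811 ± 83.5 to 57.1 ± 16.2. TFPI2, an inhibitor that placenta makes in quantity, had 72.8 ± 3.21 in UNDIF, 998 ± 52.7 with FT671 and 11708 ± 1642 with vehicle. Annexins and S100 proteins, calcium-binding proteins of the cell cortex, were 17 of 18 higher (median 2.84). The vehicle had 16 higher (median 1.63), and between FT671 and vehicle 11 were higher and 6 lower with FT671. S100A14, which epithelia carry, had 17.2, 12.2 and 11.2 counts in UNDIF, 1045, 1083 and 1199.7 with FT671 and 11.7, 15.5 and 11.7 with vehicle, so that UNDIF and vehicle met and FT671 stood apart (log2 fold change 6.28 ± 0.26, adjusted p = 3.27e-13). ANXA1, in contrast, was higher still with vehicle, at 715 ± 277, 15700 ± 481 and 26958 ± 1519.7.

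Markers of extraembryonic epithelia were measured because they share keratins and GATA factors with surface ectoderm. In the trophoblast list 21 of 42 genes were in the table, of which 17 were higher and 2 lower (median 3.76). The vehicle had nearly as many, 15 higher and 4 lower, with a smaller median (0.86). SIGLEC6, a lectin of placental trophoblast, had 2.87, 2.82 and 2.79 counts in UNDIF, 820.2, 779.7 and 727 with FT671 and 7.78, 12.6 and 4.89 with vehicle (log2 fold change 7.66 ± 0.28, adjusted p = 6.66e-14). CGA, the alpha chain shared by glycoprotein hormones, had 0 reads in UNDIF and 101, 110.5 and 87.1 counts with FT671, at least 105-fold higher, with 9.72, 11.6 and 5.86 in the vehicle. HLA-G, a class I molecule of invading trophoblast, had 101, 67.7 and 81.8 counts in UNDIF, 1696, 1728 and 1881 with FT671 and 73.9, 83.3 and 91.9 with vehicle (log2 fold change 4.40 ± 0.15, adjusted p = 3.36e-14). The hormone chain family CGB, a fixed trophoblast marker, was not analysed here, and the trophoblast factor TEAD4 was lower with FT671, at 686 ± 58.0 and 452 ± 12.0 counts. The trophoblast sum was 13636 to 14519 counts in UNDIF, 50133 to 52074 with FT671 and 44874 to 48118 with vehicle.

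Of the amnion list 11 of 17 genes were higher and 5 lower (median 1.79), and the vehicle had 10 higher and 6 lower (median 1.00). VTCN1, an immune checkpoint ligand of amnion and secretory epithelia, had 4.78, 4.70 and 7.44 counts in UNDIF, 1856, 2067 and 1275 with FT671 and 80.7, 70.7 and 102 with vehicle. IGFBP3, which binds insulin-like growth factors, rose from 73.0 ± 14.4 to 19023 ± 1875 and WNT6 from 1.26 ± 1.09 to 359.6 ± 31.6. GABRP, a fixed amnion marker, had 103, 109 and 133 counts in UNDIF and 155, 226 and 99.8 with FT671 and was not called against UNDIF (adjusted p = 0.377), with at most 1 read a library in the vehicle; ISL1, another, was not analysed here. HAND1, a factor of trophoblast, amnion and lateral mesoderm, went from 1.91, 0 and 0.93 to 86.9, 106 and 117 counts, a ratio of 109 (counting interval 37.1 to 535), with 0 in every vehicle library. The mesoderm and endoderm lists held few measured genes, 6 and 4, with 5 and 3 lower. KDR, the receptor of endothelial progenitors, which stem cells also transcribe, fell from 4226 ± 543 to 11.3 ± 7.08 counts, and CXCR4 from 95.7 ± 8.36 to 9.53 ± 2.84. The fixed markers TBXT, MIXL1, SOX17 and FOXA2 were not analysed here. The FT671 cultures carried markers of several epithelia, no cell type is assigned to them, and the part of such cells in the other gene groups was not tested.

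Genes of the dividing cell fell almost without exception. All 35 genes of mitosis and the spindle checkpoint were called and at least 2-fold lower with FT671, where 23.0% of all genes were, with a median of -2.65. In DNA replication and S phase 36 of 38 were lower and 0 higher (median -2.20), CCNE1 and SLBP being the 2 not called. The vehicle was -0.35 and -0.26 from UNDIF at the median. All 35 mitosis genes and 37 of 38 S phase genes were lower with FT671 than with vehicle, and CCNE1, a cyclin of S phase entry, was the 1 that was higher. TOP2A, the topoisomerase that untangles replicated chromosomes, had 13140, 15016 and 13340 counts in UNDIF, 1349, 1371 and 1132 with FT671 and 6412, 6566 and 6769 with vehicle (log2 fold change -3.43 ± 0.09, adjusted p = 1.40e-15). The 3 groups did not overlap, and FT671 was the lowest. The replicative helicase gene MCM2 had 4415, 4299.7 and 4322 counts in UNDIF, 543, 565 and 438 with FT671 and 3815, 3535 and 3506 with vehicle (log2 fold change -3.08 ± 0.08, adjusted p = 1.22e-15). BUB1B, a spindle checkpoint kinase, fell from 3266 ± 120.1 to 309.5 ± 39.6, the centromere gene CENPF from 11485 ± 1148 to 1253 ± 210.2 and BIRC5, survivin, from 1202 ± 543 to 125 ± 19.5. For BIRC5 UNDIF library 1 was above the other two (1828, 909 and 868), and all 3 were above FT671. Among replication genes MCM10 fell from 1057 ± 60.0 to 97.6 ± 23.4, the primase PRIM1 from 925 ± 82.5 to 90.6 ± 5.61, the licensing factor CDT1 from 1571 ± 151 to 193 ± 24.9 and the transcription factor E2F2 from 371 ± 16.8 to 37.0 ± 9.14.

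**Figure D4:**
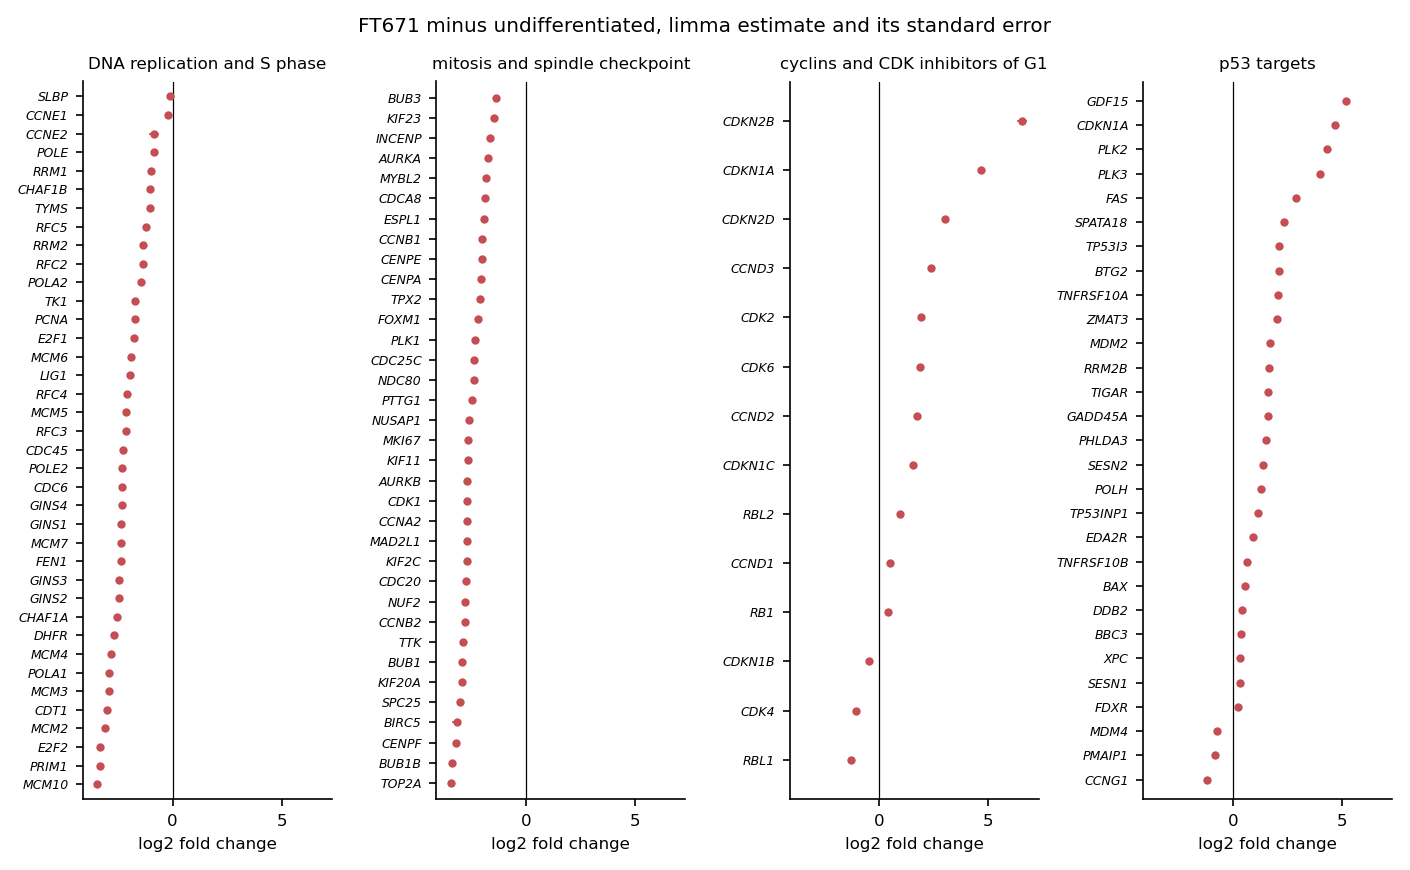
Log2 fold change of FT671 minus UNDIF, with the limma standard error, for each measured member of 4 lists. All mitosis genes and all S phase genes lie left of 0, from -3.45 to -0.13, while CDKN2B, CDKN1A, GDF15 and most p53 targets lie right of it.

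The promoters of TOP2A and CCNB2, the gene of cyclin B2 (2286 ± 227 to 329 ± 38.6 counts), are shown because the mitosis genes moved together and because their promoters share known letters. The cell cycle genes homology region (CHR) binds the DREAM and MuvB complexes, which repress these genes in resting cells and help activate them before division, and the CCAAT box binds the factor NF-Y. Capitals mark TTTGAA (CHR) and CCAAT, or TTCAAA and ATTGG where they are on the other strand, which share no base here, in the 250 bases before the start. TOP2A lies at chr17:40417897-40418146 (-) and CCNB2 at chr15:59104896-59105145 (+), RefSeq GRCh38.p14, 5′ to 3′ on the gene's strand.
TOP2A: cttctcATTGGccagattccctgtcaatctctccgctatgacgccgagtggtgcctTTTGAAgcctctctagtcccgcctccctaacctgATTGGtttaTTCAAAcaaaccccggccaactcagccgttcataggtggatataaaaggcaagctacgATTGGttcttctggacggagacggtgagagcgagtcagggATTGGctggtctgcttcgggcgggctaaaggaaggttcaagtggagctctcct
CCNB2: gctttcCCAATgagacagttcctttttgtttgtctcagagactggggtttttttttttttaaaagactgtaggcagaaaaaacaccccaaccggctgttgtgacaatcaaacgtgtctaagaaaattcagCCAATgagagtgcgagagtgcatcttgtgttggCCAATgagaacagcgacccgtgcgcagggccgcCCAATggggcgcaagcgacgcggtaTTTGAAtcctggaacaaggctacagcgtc
In TOP2A TTTGAA begins 194 and 151 bases before the start, and in CCNB2 it begins 29 bases before, with CCAAT at 244, 120, 87 and 54. TTTGAA stood in the promoter windows of 19 of 29 measured mitosis genes with a RefSeq promoter (65.5%), against 9.59% of the 10191 genes of the table and 1 of 33 S phase genes. CCAAT stood in 22 of 29 mitosis promoters (75.9%) and in 36.4% of all. Among genes called and at least 2-fold lower the shares were 13.5% and 42.1%, and among those at least 2-fold higher 8.61% and 31.7%. The motifs describe the promoters, and their part in the fall was not tested.

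Inhibitors of the cell cycle rose. CDKN1A, the gene of the inhibitor p21 and a p53 target, had 641, 595 and 604 counts in UNDIF, 15135, 14701 and 16942 with FT671 and 6573, 6327 and 6756 with vehicle (log2 fold change 4.66 ± 0.07, adjusted p = 1.25e-18; 1.25 ± 0.07 against vehicle, adjusted p = 4.00e-11). CDKN2B, an inhibitor of CDK4 and CDK6, had 14.4, 5.65 and 5.58 counts in UNDIF, 839, 854 and 761 with FT671 and 361, 424 and 421 with vehicle (log2 fold change 6.55 ± 0.23, adjusted p = 4.57e-14). Both genes were lowest in UNDIF and highest with FT671, with the vehicle between and no overlap. CDKN2D rose from 55.7 ± 7.48 to 446 ± 37.8 and the cyclin CCND3 from 509 ± 29.0 to 2611 ± 66.5. In the list of G1 cyclins, kinases and inhibitors 11 of 14 were higher and 3 lower, the lower ones being CDK4, RBL1 and CDKN1B. The vehicle had 12 higher and 1 lower, and between FT671 and vehicle 7 were higher and 5 lower with FT671.

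Targets of p53 were 25 of 29 higher and 3 lower (median 1.53), and the vehicle had 26 higher (median 1.13). Against vehicle 17 were higher and 5 lower with FT671, a share of higher genes above the 40.2% of all genes, with a median of 0.28. GDF15, a stress cytokine, had 89.0, 63.0 and 70.7 counts in UNDIF, 2435, 2266 and 3647 with FT671 and 589, 629 and 640.0 with vehicle. The kinases PLK3 and PLK2 rose from 75.1 ± 3.97 to 1212 ± 74.5 and from 328 ± 32.2 to 6608 ± 303, the latter to a level below the vehicle (8496 ± 679.6). The death receptor gene FAS rose from 82.6 ± 2.24 to 616 ± 10.7. MDM2, the ligase of p53 that USP7 stabilises and a p53 target itself, named after its values were seen, had 1034 ± 34.3 counts in UNDIF, 3366 ± 124 with FT671 and 2943 ± 90.6 with vehicle (1.70 ± 0.07 against UNDIF and 0.19 ± 0.07 against vehicle). Genes of cell death and survival were 15 of 22 higher and 3 lower with FT671 (median 0.59), and the vehicle had 16 higher and 2 lower (median 0.76). CASP4, an inflammatory caspase, had 1 read in UNDIF, at 0, 0 and 0.93 counts, 1106, 1108 and 1160.5 with FT671 and 0.972, 0.969 and 6.84 with vehicle, a ratio to UNDIF of 3630.3 (counting interval 642 to 141480). The survival gene BCL2L1 rose from 3028 ± 441 to 11568 ± 709.8 and BID, which links death receptors to mitochondria, from 412 ± 25.3 to 1457 ± 23.1. BCL2L11, BMF and PMAIP1, all of the death-promoting BH3-only class, were the 3 that fell with FT671.

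Genes of Polycomb complexes and of DNA methylation moved in both directions. Of 25 genes of PRC2 and canonical PRC1, 10 were higher and 11 lower, near the shares of all genes. The chromobox gene CBX2 fell from 3962 ± 257 to 330.3 ± 37.7 counts and the PRC2 cofactor JARID2 from 3768 ± 212 to 791 ± 47.1, while PCGF5 rose from 213 ± 23.9 to 836 ± 25.4. DNMT3B, a de novo methyltransferase of stem cells, fell from 8692 ± 59.7 to 517 ± 15.9, against 521 ± 37.5 in the vehicle (adjusted p = 0.929 for FT671 against vehicle), and TET1, which removes DNA methylation, fell from 1792 ± 182 to 243 ± 16.8. Of 13 DNA methylation genes 7 were lower and 5 higher.

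Imprinted genes, which are read from only the maternal or the paternal copy, made some of the widest moves in both directions. H19, a maternally expressed non-coding RNA, had 186, 161 and 159 counts in UNDIF, 58676, 56427 and 53212 with FT671 and 4470.5, 7641 and 7967 with vehicle (log2 fold change 8.37 ± 0.16, adjusted p = 3.59e-17). IGF2, the growth factor gene beside it on the paternal copy, had 289, 135 and 151 counts in UNDIF, 11459, 10717 and 11247 with FT671 and 304, 529 and 531 with vehicle (log2 fold change 5.94 ± 0.23, adjusted p = 1.89e-13). Both were highest with FT671, with no overlap (3.11 ± 0.16 and 4.66 ± 0.23 against vehicle). The DLK1 and MEG3 domain went down: MEG3 had 348, 385 and 405 counts in UNDIF and 0, 0 and 1.06 with FT671, a fall by a ratio of 1072 (counting interval 193 to 42576), and DLK1 fell from 2722 ± 129 to 79.7 ± 12.8. In the vehicle these stood at 0.649 ± 0.562 and 119.7 ± 3.85. NNAT fell from 1127 ± 178 to 56.1 ± 7.18. Over the list 9 of 16 were higher and 6 lower (median 0.34), so the list as a whole did not move 1 way.

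Signalling genes changed in receptors and ligands as well as in feedback genes. Of 30 BMP and TGF-beta genes 18 were higher and 10 lower. FST, which traps activin, fell from 5831 ± 34.7 to 80.4 ± 13.7 counts, and the activin subunit INHBA rose from 4.09 ± 2.73 to 171 ± 20.9. TGFB2 rose from 46.9 ± 18.3 to 1396 ± 101, against 1329 ± 128 in the vehicle (adjusted p = 0.721 for FT671 against vehicle), and the BMP antagonist NOG from 23.5 ± 3.08 to 618 ± 25.2. The BMP target genes ID1 and ID2, named after their values were seen, fell from 3964 ± 146 to 295 ± 25.9 and from 1337 ± 90.1 to 64.9 ± 14.6.

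In the WNT list 10 of 25 genes were higher and 14 lower. The secreted antagonists FRZB, DKK1 and SFRP2 fell, from 2124 ± 154 to 7.74 ± 5.29, from 598 ± 33.4 to 4.58 ± 0.618 and from 4622 ± 332 to 49.0 ± 21.6 counts. SFRP2 moved in opposite directions in the groups, with 47406, 53376 and 51246 counts in the vehicle libraries (-10.07 ± 0.18 for FT671 against vehicle, adjusted p = 6.38e-17). The ligands WNT7A and WNT6 rose, WNT7A from 5.07 ± 5.55 to 606 ± 51.6. WNT10A, a ligand of skin appendages, had 1 read in UNDIF, at 0.957, 0 and 0 counts, and 754, 734 and 777 with FT671, a ratio of 2368 (counting interval 431 to 95014).

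Genes of FGF receptors fell and that of the EGF receptor rose. FGFR1 had 15317, 14699 and 15252 counts in UNDIF, 978, 938 and 830.3 with FT671 and 5816, 5981 and 5850.2 with vehicle (log2 fold change -4.04 ± 0.07, adjusted p = 6.02e-18), and FGFR2, FGFR3 and FGFR4 were called lower as well. EGFR, the receptor of epithelial growth, had 295, 289.8 and 323 counts in UNDIF, 5699, 5592 and 5322 with FT671 and 2879.5, 3014 and 3293 with vehicle (log2 fold change 4.19 ± 0.11, adjusted p = 1.34e-15). Its ligand gene HBEGF rose from 79.9 ± 17.0 to 1376 ± 39.1, and to 2348 ± 221 with vehicle. FGF19 had 81.3, 53.6 and 67.9 counts in UNDIF and 0 with FT671, at least 64-fold lower, and 0, 0.969 and 0 with vehicle. Over the FGF and EGF list 13 of 26 were higher and 11 lower. Notch genes were 12 of 17 lower and 4 higher: the glycosyltransferase LFNG fell from 832 ± 82.4 to 46.5 ± 16.5, the target NRARP from 729.9 ± 91.8 to 84.3 ± 7.83 and HEYL from 260.5 ± 22.8 to 13.04 ± 4.27, while the ligand JAG2 rose from 303 ± 23.7 to 1613 ± 62.9. YAP and TEAD targets, which respond to cell spreading, were 18 of 21 higher (median 1.80), and the vehicle had the same counts (median 0.94). Between FT671 and vehicle 10 of them were higher and 7 lower with FT671 (median 0.13). NT5E rose from 12.3 ± 5.01 to 803 ± 43.6, the clotting initiator F3 from 136 ± 17.5 to 3712 ± 234 and ANKRD1 from 952 ± 422 to 12316 ± 967. NT5E and ANKRD1 were higher still with vehicle, at 1463 ± 216 and 20099 ± 1980 counts. F3 differed from the vehicle (457 ± 32.2) by 3.02 ± 0.09 on the log2 scale.

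Metabolic genes changed in parts. Of 30 genes of glycolysis and the hypoxia response 22 were higher and 8 lower (median 0.80). SLC2A3, a high-affinity glucose transporter, had 7916, 7692 and 7448 counts in UNDIF, 78017, 83084 and 77321 with FT671 and 4351, 4714 and 4684 with vehicle (log2 fold change 3.37 ± 0.07, adjusted p = 3.59e-17), so the FT671 libraries were highest and the vehicle lowest. The lactate exporter SLC16A3 rose from 392 ± 54.1 to 5017 ± 123, NDRG1 from 129 ± 20.9 to 1725 ± 31.4 and PFKP, an early enzyme of glycolysis, from 1856 ± 63.1 to 12048 ± 470.0. The members that fell were glycolytic enzymes and sensors such as PFKM, HK2 and EGLN3. Oxidative phosphorylation genes were 13 of 28 higher and 9 lower, none at least 2-fold, and scaled by library totals 6 were higher. Cholesterol synthesis genes were 9 higher and 9 lower of 21.

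The lysosome list was among the most uniform. Of 31 genes 29 were higher, 27 of them at least 2-fold, and 1 lower (median 1.55). The cathepsin gene CTSB had 2441, 2338 and 2411 counts in UNDIF, 19219, 19686 and 20956 with FT671 and 9145, 9716 and 10352 with vehicle (log2 fold change 3.06 ± 0.07, adjusted p = 1.01e-16), with no overlap between groups. The acid sphingomyelinase SMPD1 rose from 143 ± 7.43 to 1787 ± 38.9, the membrane protein LAMP2 from 896 ± 35.1 to 5805 ± 89.7 and TFEB, a transcription factor of lysosomal genes, from 35.8 ± 5.17 to 298 ± 18.6. The vehicle had 25 higher (median 0.75), and 30 of 31 were higher with FT671 than with vehicle. Cytosolic ribosomal protein genes went down, 40 of 43 lower and 0 higher (median -0.79), with RPS25 falling from 3069 ± 269.6 to 1057 ± 76.1 and RPL3 from 44180 ± 1736 to 24041 ± 659. In the vehicle 42 were lower (median -0.67). Ribosomal protein genes have many processed copies in the genome, and reads shared with them could not be checked.

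Genes of antigen presentation by class I molecules were 12 of 16 higher and 1 lower (median 1.11). The vehicle had 10 higher and 2 lower (median 0.50). B2M, the common light chain, had 999, 913 and 912 counts in UNDIF, 4536, 4759 and 5198 with FT671 and 1877, 2204 and 2369.6 with vehicle (log2 fold change 2.36 ± 0.09, adjusted p = 1.20e-13). TAP1, which carries peptides into the endoplasmic reticulum, rose from 321 ± 10.5 to 1931 ± 90.4 and HLA-E from 924 ± 51.7 to 4960 ± 263. The class I heavy chains are closely similar genes, and the split of reads between them is uncertain. The interferon response list had 18 of 22 higher and 4 lower (median 1.34), and the vehicle had 15 higher and 5 lower (median 0.62). With FT671 IFIT2 rose from 1.58 ± 1.12 to 135 ± 5.50, MX1 from 65.4 ± 7.65 to 288 ± 39.1 and USP18 from 13.8 ± 0.375 to 88.5 ± 1.02, while BST2 fell. Genes of the integrated stress and unfolded protein response were 15 of 21 higher and 4 lower. The vehicle was close to this, with 14 higher and 4 lower, and between FT671 and vehicle 9 were higher and 6 lower with FT671. HERPUD1 and EDEM1, which serve degradation of misfolded proteins, rose from 187 ± 23.7 to 1373 ± 18.6 and from 471 ± 33.2 to 3077 ± 37.9. In the vehicle they had 1251 ± 135 and 1472.5 ± 30.7, and HERPUD1 was not called between FT671 and vehicle (limma adjusted p = 0.182). SLC7A11, the cystine importer, fell from 1424 ± 105 to 202 ± 42.9, together with the serine synthesis genes PHGDH and PSAT1 and with ASNS. The germline list held 3 measured genes, of which DAZL, an RNA-binding protein of germ cells, fell from 943 ± 102 to 2.82 ± 0.607 and the others were not called. DAZL had 0 counts in every vehicle library.

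**Figure D5:**
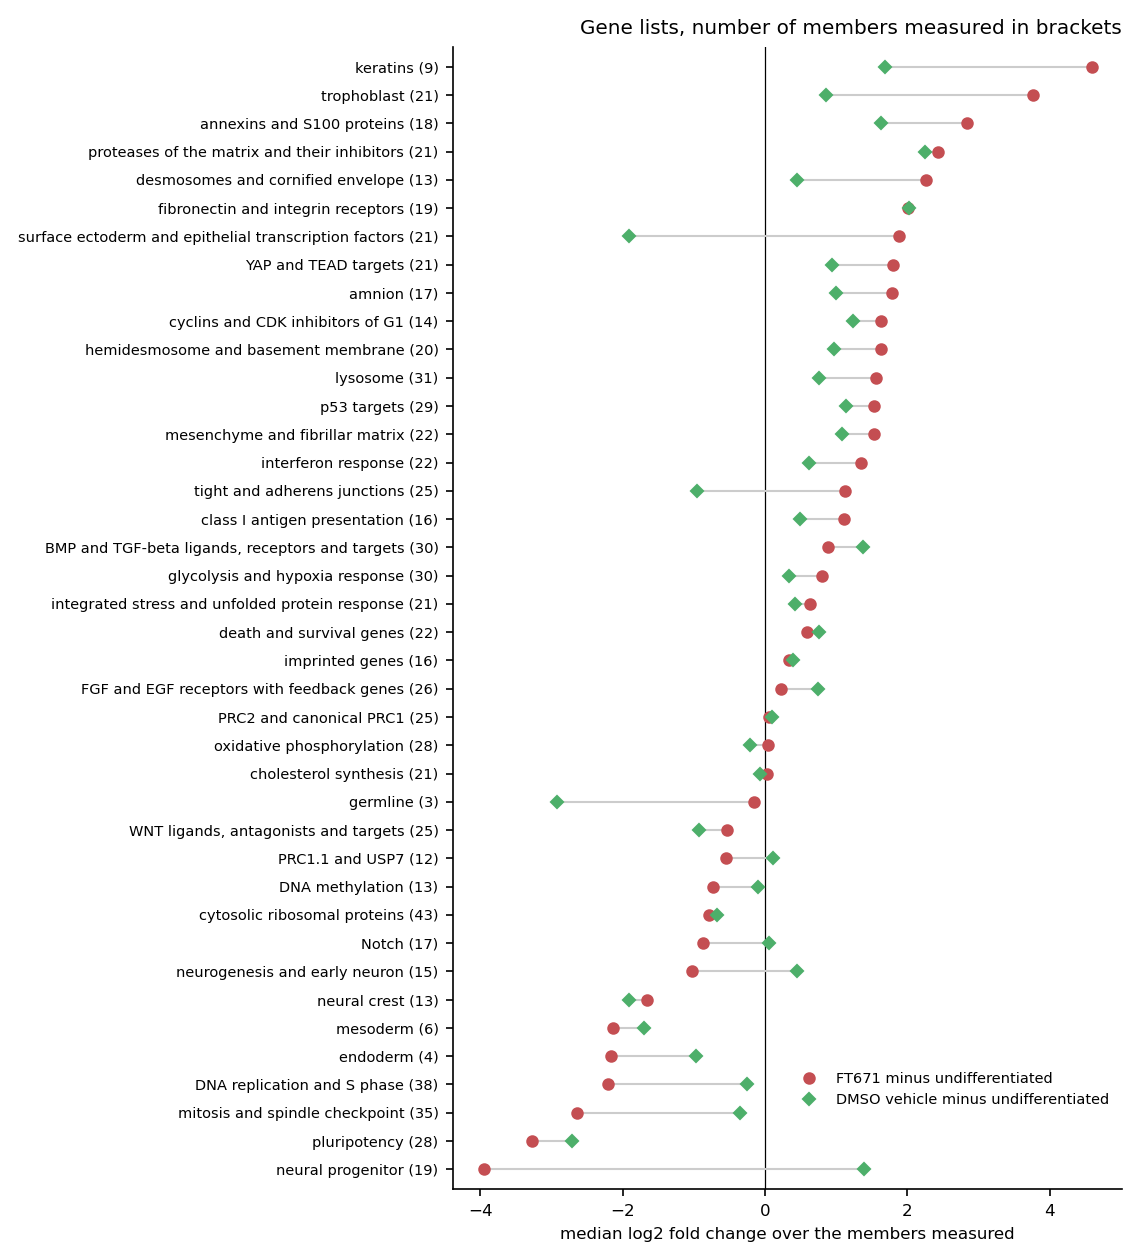
Median log2 fold change over the measured members of each of the 40 lists, for FT671 minus UNDIF (red circles) and vehicle minus UNDIF (green diamonds), which share the UNDIF libraries. The lists run from neural progenitor (-3.95) to keratins (4.59), and the groups lie on opposite sides of 0 for neural progenitor, neurogenesis, epithelial transcription factors and junctions among the lists whose FT671 median was beyond 1 in either direction.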

How the data were processed

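PolyA RNA of 12 H9 samples was sequenced, and the authors deposited 1 table of 13310 genes with a signal value per sample. Per the submitters' processing notes the tools include STAR, HTSeq, DESeq2 and R 4.3.1 and the build is hg19. Other versions, the annotation and the strand setting are not given in the sources used here. Reads of overlapping, antisense or near-identical genes could therefore be misassigned. The deposited signal minus 1 is a read count divided by 1 size factor per library: in all 12 columns 100% of values gave whole reads (tolerance 0.001). In NEUR library 3 1 read was worth close to 1, so a second check of the steps could not be applied to it, and the NEUR group was left out of the count tests. The recovered totals were 17149947 to 17198800 reads with vehicle. The table has 47 columns, of which 33 were not used here. Of 763 genes with no symbol there, 356 were given a symbol by looking up their identifier.

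Samples were grouped by title, and no label gives a batch. The test was limma 3.58.1 in R 4.3.3 on log2(value), which has a pseudocount of 1, in 1 model of 4 groups over 12 libraries with a trended prior. No filter was added, the smallest gene mean being 12.2 counts. Contrasts were FT671 against UNDIF, FT671 against vehicle, which also tests whether their changes from UNDIF differ, and vehicle against UNDIF. The genes named by rule were USP7, BCOR, PCGF1 and KDM2B, the 4 markers, the 12 largest rises and falls among genes at or above 1 on the log2 CPM scale whose groups were apart, up to 5 called members of each list with the largest fold change, the 6 genes with most reads in each group, and the 3 largest changes each way among genes high in both groups. Any other gene is a fixed cell type marker or was named after its values were seen. The members and the 40 lists, with 829 of 1025 entries in the table, were chosen with earlier results of these data known. Other list entries were not analysed here, and some genes are not reported here. Intervals of ratios and floors cover counting error only. The alternatives were other pseudocounts, scalings and filters, fewer libraries, a replicate block, and edgeR 4.0.16 and DESeq2 1.42.0 on the recovered counts of the other 9 libraries. The fits were tested on simulated data. Replicate numbers were not used to pair samples. Same-numbered UNDIF and FT671_NEUR libraries correlated by only 0.010, 0.056 and 0.022 in their deviations from the group mean, and other-numbered ones by -0.046 to 0.026. Pairing with the vehicle libraries was not checked.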

Additional observations from a re-analysis of the deposited data

How the results depend on the processing

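The number of genes called between FT671 and UNDIF was 11711 and stayed between 11375 and 11498 when 1 of the 6 libraries was left out. It was 9886 with a filter at a mean of 100 counts, 11539 under library totals, 11974 by edgeR's quasi-likelihood test and 11831 by DESeq2, the last pair on 9 libraries. With the replicate number as a block it was 11648, although same-numbered libraries of these groups correlated by at most 0.056. No summary count moved by over 1.5 times under the 17 alternatives. Under library totals the split was 4789 higher and 6750 lower, the all-gene median moved by -0.27, and the higher oxidative phosphorylation genes went from 13 to 6. Of 3562 gene and setting pairs over 211 genes described by rule, 3561 kept their side of the threshold. No pair with a call in either fit changed direction. Direction was not compared where neither fit called the gene. COX1, a mitochondrial gene, was not called in the comparison and had a log2 fold change of 0.23 (limma adjusted p = 0.0384) without UNDIF replicate 1. Of 80 list counts, 13 moved over 1.5 times under some alternative, most where few genes were counted or the filter removed members. With 3 libraries a group, small changes and genes of a few reads are least certain.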

Other observations

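Among the largest rises were genes outside the epithelial lists. OLR1, a scavenger receptor for oxidised lipoprotein, had 0, 0 and 0.93 counts in UNDIF, 1642, 1568 and 1962 with FT671 and 5.83, 0.969 and 0.977 with vehicle, a ratio of FT671 to UNDIF of 5564 (counting interval 984 to 216760). ZBED2, a zinc finger gene of keratinocytes, had 0 reads in UNDIF, 1105, 1192 and 1055 counts with FT671 and 14.6, 15.5 and 11.7 with vehicle, at least 1186-fold higher than UNDIF. In neither gene did the groups FT671 and UNDIF come near each other. GPRC5A, an orphan receptor of lung and other epithelia, rose from 9.42 ± 0.807 to 11819 ± 652 counts with 200.1 ± 13.9 in the vehicle, and MGLL, a lipase that breaks down endocannabinoid, rose from 5.94 ± 3.84 to 3517 ± 184 with 554 ± 18.8. SRPX2, a secreted protein, rose from 1.88 ± 0.0273 to 3247 ± 211 with 791 ± 30.7. ARHGDIB, a gene best known in blood cells, rose from 7.57 ± 3.39 to 4898 ± 209.5 with 738 ± 14.9. GASK1B was an exception to this order: it had 0.31 ± 0.537 counts in UNDIF and 623 ± 30.3 with FT671, but 1320.3 ± 102 with vehicle.

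The largest falls took in adhesion and signalling genes of stem and neural cells. PTPRZ1, a receptor phosphatase of radial glia, had 6017, 6643 and 6201 counts in UNDIF, 1.06, 2.10 and 3.19 with FT671 and 102, 138 and 125 with vehicle (log2 fold change -11.04 ± 0.22, adjusted p = 3.59e-17). The cadherin CDH6 had 4297, 4648 and 5098 counts in UNDIF, 2.12, 8.42 and 7.43 with FT671 and 1253, 1659 and 1713 with vehicle (log2 fold change -9.54 ± 0.28, adjusted p = 4.72e-15). Both genes were lower in the vehicle than in UNDIF and lower again with FT671, with no overlap between groups. APELA, which encodes a peptide hormone of stem cells, fell from 2421 ± 408 to 1.05 ± 1.05 counts, CYP26A1, which breaks down retinoic acid, from 1318 ± 106 to 1.05 ± 1.05, and the ephrin receptor EPHA7 from 1255 ± 84.0 to 1.77 ± 2.21. In the vehicle APELA, CYP26A1 and EPHA7 had 19.1 ± 5.44, 1.62 ± 1.48 and 132 ± 19.3 counts. LRRN3 fell from 1451 ± 146 to 0.708 ± 1.23, with 732 ± 78.2 in the vehicle. LINC00698, a non-coding RNA, had 709, 773 and 764 counts in UNDIF and 0 with FT671, at least 708-fold lower, and 0.972, 1.94 and 1.95 with vehicle. GJA1, the main gap junction gene of stem cells, had 17848, 19819 and 20439 counts in UNDIF, 973, 1146 and 1103 with FT671 and 8182, 8224 and 8666 with vehicle (log2 fold change -4.17 ± 0.08, adjusted p = 1.98e-17). SPP1, osteopontin, had 1285, 998 and 878 counts in UNDIF, 33237, 35628 and 36815 with FT671 and 11767, 12277 and 12311 with vehicle.

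Among genes with most counts, the translation factor EEF2 had 95822 ± 4192 counts in UNDIF and 80044 ± 3430.3 with FT671, and beta-actin, ACTB, had 51988 ± 6608 and 131120 ± 4308. The mitochondrial gene COX1 had 173700, 147810 and 149930 counts in UNDIF and 177070, 175040 and 171370 with FT671 and was not called (adjusted p = 0.151, limma). UNDIF library 1 was the farthest from the others of its group for COX1.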
